A study of Mus musculus with 14 samples.

Results

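Zp3-Cre-positive mouse GV oocytes injected with miR-15a mimic were set beside Zp3-Cre-positive oocytes of the array table without mimic, called the first set here. The members are 7 of the series' 14 arrays, chosen by their labels and by the table that holds them: 3 in the mimic set and 4 in the first set. GV oocytes are fully grown, meiotically arrested oocytes with an intact nucleus, the germinal vesicle. Both groups had a human Ago2 transgene with myc and GFP tags, placed in Rosa26 behind a lox-stop-lox cassette, and were positive for Zp3-Cre, a Cre driven by a promoter active in growing oocytes. Mimic, bought from Dharmacon, was injected at 2 µM in the mimic set, and what was injected in the first set is not given in the sources used here. The mice had received 5 units of PMSG, a gonadotropin that stimulates follicle growth, 48 hours before injection. Oocytes were held overnight in 2 µM milrinone, an inhibitor of the phosphodiesterase PDE3A that keeps meiosis arrested. The sources used here give neither strain nor age of the animals nor the number of oocytes behind an array, and they do not say that arrays of 1 group came from separate animals. Near the end the Cre-negative oocytes of the same 2 tables, 3 arrays with mimic and 4 without, are set beside them; no group carried Zp3-Cre without the transgene.

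Mimic and table coincide: every array with mimic lies in one table and every array without mimic in the other. The effect of the mimic and that of the table cannot be told apart, so what follows gives levels and ranks of 2 sets of arrays and no test of the mimic.

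A microRNA guides an Argonaute protein to messenger RNAs, mainly through pairing of its seed, bases 2 to 8, with sites in their 3′ untranslated regions, and bound messages are translated less and decay faster. AGO2 is the Argonaute that can also cut a perfectly matched target. A mimic is a synthetic duplex that loads into Argonaute as the natural microRNA would. Fully grown mouse oocytes are transcriptionally quiet and rely on stored maternal messages, and repression by microRNAs is known to be weak in them. miR-15a belongs to a family known for targets in the cell cycle and in cell survival.

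The mature sequences below are shown because they define which endogenous microRNAs share the seed of the injected mimic; the seed is in capitals. They are RefSeq's for mouse build GRCm38.p6, where 10 of 1679 mature names, from 11 loci, have this seed, and the mimic's own sequence is not given in the sources used here.
mmu-miR-15a-5p: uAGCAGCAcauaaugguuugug
mmu-miR-15b-5p: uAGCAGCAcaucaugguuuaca
mmu-miR-16-5p: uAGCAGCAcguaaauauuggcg
mmu-miR-195a-5p: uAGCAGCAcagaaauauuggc
mmu-miR-497a-5p: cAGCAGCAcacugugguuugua
mmu-miR-322-5p: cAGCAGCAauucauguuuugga
Counted from the 5′ end, miR-15b-5p has the same base as miR-15a-5p at 18 positions, miR-497a-5p at 17, miR-16-5p at 16, and miR-195a-5p and miR-322-5p at 15 each. The mature miR-15a-5p stretch of Mir15a lies on the minus strand at chr14:61632075-61632096. A mature miR-16-5p stretch lies beside it at chr14:61631936-61631957 on the same strand. The arrays measured messenger RNA and no microRNA.

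The 7 arrays were background corrected and quantile normalized together, and signal is given on the log2 scale. The rank of a probe is its percentile within its own array among the probes detected on all 7 arrays. It runs from 0 for the dimmest of these probes to 100 for the brightest. Of 25697 probes, 10651 (41.4%) had a detection p under 0.05 on all 7 arrays, and their brightest probes stood for 7242 genes. Before normalization the arrays of the mimic set were brighter, with a mean intensity of 339 to 380 against 118 to 151 in the first set, and their bright probes stood further above the median: the 95th percentile was 8.19 to 9.52 times the median in the mimic set and 3.80 to 5.28 times in the first set. Between 13129 and 13482 probes per array were detected in the mimic set and between 11652 and 13459 in the first set. Oocyte markers were detected on every array of both sets, 9 of 9, with a summed signal of 155 to 188 array medians in the mimic set and 80.8 to 138 in the first set. Of 27 granulosa and cumulus marker genes, 7 to 8 were detected per array in the mimic set and 3 to 11 in the first set, with a summed signal of 27.87 to 27.96 and 27.57 to 28.74 array medians. Of 12 theca and stroma genes, 2 were detected on each array of both sets, with sums of 14.06 to 14.56 in the mimic set and 12.38 to 12.94 in the first set. Of 9 blood and immune genes, 1 was detected per array in the mimic set and 1 to 3 in the first set, with sums of 10.18 to 10.44 and 9.32 to 9.69. The sums add raw signal of all markers of a list, detected or not. In the lists with few detected markers they are therefore largely background and say little about cells of that type. The part of array brightness, detection or marker signal in the set difference was not tested.

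The brightest genes were largely the same in both sets. E330034G19Rik was the brightest gene on all 7 arrays. Ctcfl, a germline paralog of the insulator protein CTCF, and Dnmt1, the maintenance DNA methyltransferase, came next in both sets. The other genes of highest mean rank in the mimic set were Tubb2b, a beta-tubulin, Rchy1, a ubiquitin ligase, Bmp15, the oocyte's growth factor for its follicle, Chek1, the DNA damage checkpoint kinase, Rpl23 of the large ribosomal subunit, Nup93 of the nuclear pore and Zcchc8, a subunit of a nuclear RNA exosome adaptor. Each of these 10 averaged a rank of at least 99.9 in the mimic set and of at least 99.8 in the first set. Of the 10, 100 and 500 genes of highest mean rank in each set, 8, 70 and 419 were shared. The mean rank of 3928 of the 7242 genes (54.2%) differed by under 5 points.

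The distance between the sets was nonetheless larger than that between arrays of 1 set. Pearson's r across the 10651 detected probes was 0.987 to 0.991 between arrays of the mimic set and 0.965 to 0.986 within the first set. Between arrays of the 2 sets it was 0.942 to 0.958. These are correlations across probes, which are not independent replicates. The median gene moved 2.10 to 2.40 rank points between 2 arrays of the mimic set, 2.54 to 4.29 points within the first set and 4.60 to 5.74 points between sets. The first principal component of the same probes held 58.0% of the variance. It separated the sets, at -25.4 to -22.3 in the mimic set and 15.7 to 19.7 in the first set. The second component, with 18.3%, set first-set replicate 4 apart at -25.8, all other arrays lying between -0.22 and 12.1. Over all genes the difference of the mimic set minus the first set had a median of -0.01 on the log2 scale and a range of -2.39 to 1.71, and 3504 genes (48.4%) were above 0. Its median size was 0.250, while the median gene's SD was 0.112 among the 3 mimic arrays and 0.178 among the 4 first-set arrays.

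A gene is called higher or lower below when its log2 signals and its ranks do not overlap between the 3 and the 4 arrays and its means differ by 2-fold or more. By this rule 20 of 7242 genes (0.276%) were higher in the mimic set and 97 (1.34%) were lower. By ranks that do not overlap alone, 1415 genes (19.5%) stood above the first set and 1536 (21.2%) below it. These shares are the background for every list below, and the rule is a description and not a test. Genes just inside and just outside the size limit were Ppargc1b at 1.006 and Btd at 0.996, and on the lower side Svs2 at -1.001 and Mrpl17 at -0.999. The lower genes were found at all levels of signal, with the fewest among the brightest genes. Over 5 equal bins of genes, dimmest to brightest, they numbered 13, 31, 29, 21 and 3. The higher genes numbered 0, 5, 9, 3 and 3.

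**Figure D1:**
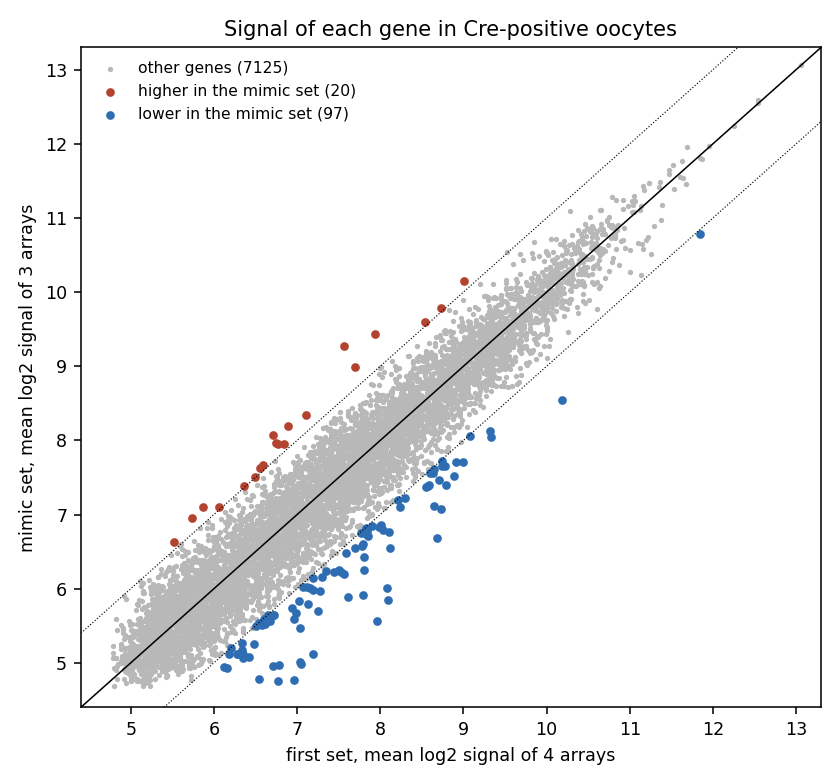
Mean log2 signal of each of 7242 genes in the 3 arrays of the mimic set (vertical) against the 4 arrays of the first set (horizontal), Cre-positive oocytes. Points are genes, the solid line is equality and the dotted lines are 2-fold differences; 20 genes called higher and 97 called lower are coloured, and the brightest genes lie near equality.

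Among the genes higher in the mimic set, the actin nucleator and formin Diaph1 stood first. Its log2 signal was 9.06, 9.36 and 9.40 in the mimic set, against 7.46, 7.48, 7.88 and 7.44 in the first set. The dimmest mimic array lay above the brightest first-set array, the means of 9.27 ± 0.182 (SD, n = 3) and 7.57 ± 0.212 (SD, n = 4) differed 3.26-fold, and its mean rank was 89.3 and 59.9. Epc2, an enhancer-of-polycomb subunit of a histone acetyltransferase complex, had 9.44, 9.39 and 9.46 in the mimic set and 7.73, 8.02, 8.06 and 7.94 in the first set, a difference of 1.49. Its groups were well apart, at mean ranks of 91.3 and 67.8. Nploc4, a cofactor of the segregase p97 that extracts ubiquitinated proteins, had 9.02, 8.91 and 9.05 in the mimic set and 7.82, 7.87, 8.03 and 7.05 in the first set. The groups did not overlap, and replicate 4 was the lowest of the first set.

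Dip2b had a log2 signal of 7.96, 7.98 and 7.97 in the mimic set and 6.64, 6.85, 6.78 and 6.72 in the first set. It was the most even of the 20 higher genes within the mimic set, with an SD of 0.010, and its difference was 1.22. Fbxl19, an F-box protein of ubiquitin ligases, was the brightest of the 12 genes furthest higher, at 10.12, 10.12 and 10.22 in the mimic set and 9.11, 9.11, 8.81 and 9.001 in the first set. Its mean rank was 97.0 and 85.9. Rrp1, which takes part in ribosomal RNA processing, had 7.17, 7.04 and 7.10 in the mimic set and 6.06, 5.84, 5.85 and 5.70 in the first set. Its mean rank was 49.7 and 20.7.

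The remaining 6 of the 12 were Tll1, a tolloid-like metalloprotease, Arhgap10, Sufu, the suppressor of Hedgehog signalling, Hecw2, a HECT-type ubiquitin ligase, Dmrtc1b and Shisa5. Their differences were 1.31, 1.24, 1.19, 1.12, 1.21 and 1.37. Shisa5 is a membrane protein known from the p53 response, and had 8.11, 7.99 and 8.13 in the mimic set and 7.07, 6.62, 6.85 and 6.29 in the first set. Its other probes went the opposite way, as given below. Under each of 16 processing alternatives 4 of the 12 genes were called again, Diaph1, Epc2, Nploc4 and Fbxl19; the other 8 were under 2-fold without background correction, at 0.52 (Hecw2) to 0.91 (Shisa5).

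Among the genes lower in the mimic set, Taf15 stood first. It encodes an RNA-binding protein of the FET family that associates with TFIID. Its log2 signal was 5.64, 5.94 and 5.13 in the mimic set, against 7.89, 7.78, 8.16 and 8.01 in the first set. The groups were far apart, the means of 5.57 ± 0.410 (SD, n = 3) and 7.96 ± 0.163 (SD, n = 4) differed 5.24-fold, and the mean rank was 14.1 and 68.2. Ppp3r1, the regulatory B subunit of the calcium-activated phosphatase calcineurin, had 6.67, 6.84 and 6.55 in the mimic set and 8.54, 8.53, 8.42 and 9.23 in the first set. Its difference was -2.00, with first-set replicate 4 the highest array. Atp6v0a1, a membrane subunit of the proton pump V-ATPase, had 6.04, 5.94 and 5.77 in the mimic set and 7.91, 7.76, 8.17 and 7.33 in the first set, a difference of -1.88. A second Atp6v0a1 probe, detected on 3 arrays of each set, gave 0.03.

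Hsd3b2, a steroid dehydrogenase of a family of near-identical copies, had 5.61, 5.94 and 5.99 in the mimic set and 8.03, 8.27, 7.996 and 8.06 in the first set, a difference of -2.24. Which copy the signal comes from is uncertain. A second Hsd3b2 probe was detected on all 4 first-set arrays and on 0 mimic arrays, and 4 further probes were detected on no array of either set. Myocd, a coactivator of smooth and cardiac muscle genes, had 5.01, 4.94 and 4.96 in the mimic set and 6.74, 6.70, 6.53 and 7.15 in the first set. A second Myocd probe was likewise detected on all 4 first-set arrays and on 0 mimic arrays. Trak2, which links mitochondria to kinesin, had 4.77, 4.71 and 4.86 in the mimic set and 6.35, 6.62, 6.70 and 6.48 in the first set, and its other probes differed by -1.82 and -0.24.

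Several of the lowest genes sat at the bottom of the detected range in the mimic set. Gja1, connexin 43, which forms gap junctions between granulosa cells, had 4.79, 4.79 and 4.72 in the mimic set, a mean rank of 0.6, and 7.28, 6.37, 7.25 and 6.95 in the first set, a mean rank of 46.5. Of the granulosa and cumulus list it was 1 of 2 genes detected on all 7 arrays. The other, the nuclear receptor Nr5a2, differed by -0.36, and 25 of 27 did not pass detection on all 7 arrays. Other markers went either way. Inha, Fst, Star and Pgr were detected on 0 arrays of either set. Npr2 and a Kitl probe were detected on 3 mimic and 3 first-set arrays, Has2 on 3 and 1, and Inhba on 3 and 2. Amh, Foxl2, Wt1, Cyp11a1, Hsd17b1, Inhbb, Btc and Slc38a3 were each detected on 0 mimic arrays and 1 first-set array. The Fshr probes were detected on 2 and 4, 0 and 3, and 1 and 0 arrays. An Amhr2 probe and a second Kitl probe were detected on 1 and 2. The sets have 3 and 4 arrays. In such bulk samples fewer cells of a type and less RNA per cell cannot be told apart, and the part of adhering cells in the Gja1 signal was not tested. Scgb3a1, a secretoglobin, averaged a rank of 0.7 in the mimic set and 42.1 in the first set, and Stk32c, a kinase, 2.8 and 48.1. Prr7 and the predicted gene Gm7609 averaged ranks of 4.7 and 3.3 in the mimic set and 51.6 and 48.4 in the first set. Differences of genes this close to the floor depend on the offset that follows background correction: that of Gja1 was -2.20 as given, -3.26 with an offset of 1 and -0.96 without background correction. Without that correction 7 of the 12 lowest genes were under 2-fold, while Taf15, Hsd3b2, Npm2, Ppp3r1 and Atp6v0a1 were called under each of the 16 alternatives.

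**Figure D2:**
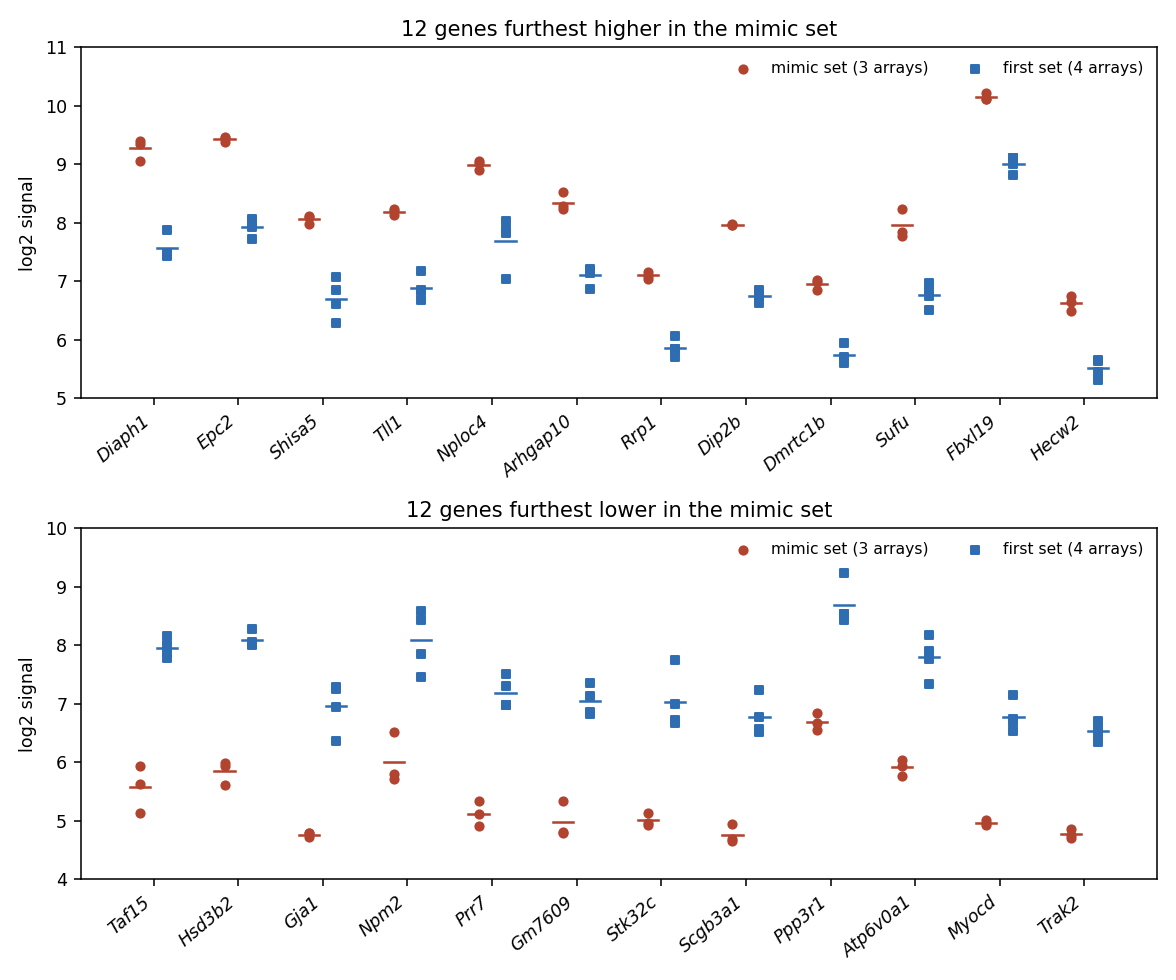
Log2 signal on each array for the 12 genes furthest higher (top) and the 12 furthest lower (bottom) in the mimic set, Cre-positive oocytes. Circles are the 3 arrays of the mimic set, squares the 4 of the first set and bars their means; in all 24 genes the circles and squares do not overlap, which the rule for choosing them required.

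Targets that the literature gives for miR-15 and miR-16 had a median close to that of all genes. Of 52 on the array, 30 were detected on all 7 arrays, and their median difference was -0.04, against -0.01 over all genes. Medians this small carry no direction: those of 18 of the 24 lists changed sign under at least 1 of the processing alternatives. Lamc1 was called higher and Cadm1 lower. By rank alone 7 of 30 stood above and 6 below the first set, beside the 19.5% and 21.2% of all genes given above. Cadm1, a cell adhesion molecule of the immunoglobulin family, had 6.55, 6.95 and 6.70 in the mimic set and 7.54, 7.92, 7.86 and 7.99 in the first set, a difference of -1.09. Lamc1, the gamma-1 chain of laminin, had 7.77, 7.44 and 7.69 in the mimic set and 6.61, 6.50, 6.53 and 6.58 in the first set, a difference of 1.08. The 2 genes lay about equally far to either side of 0, and without mimic replicate 1 both were under 2-fold, Cadm1 at -0.986 and Lamc1 at 0.988, as they were at -0.72 and 0.68 without background correction. Among cell cycle targets, Birc5, the passenger protein survivin, gave -0.04, Chek1 -0.03 and the Cdk1-inhibiting kinase Wee1 0.09, all with overlapping ranks. The phosphatase Cdc25a gave -0.33 and the cytokinesis scaffold Anln -0.22, and their ranks lay below the first set without overlap. The cyclins Ccnd1 and Ccnd3 gave 0.29 and -0.19, with ranks above and below the first set, and Mcl1, an anti-apoptotic BCL2 relative, gave -0.09.

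In the machinery of RNA silencing and message decay, 39 of 47 genes were measured, with a median difference of 0.05; 0 were called higher and 1 lower. The lower one was Tarbp2, the double-stranded RNA-binding partner of Dicer, with 7.61, 7.65 and 7.43 in the mimic set and 8.67, 8.67, 8.66 and 8.39 in the first set. Its second probe, detected on 3 mimic and 2 first-set arrays, gave 0.42, the opposite sign. The first probe was called in 11 of 16 alternatives. It was under 2-fold at -0.63 with the deposited tables centred, -0.78 without background correction and -0.90 with an offset of 50. The value was -0.97 with median scaling and again without mimic replicate 3. Ago2 had 7.29, 7.38 and 7.20 in the mimic set and 7.76, 7.58, 7.53 and 7.66 in the first set, a difference of -0.35 with groups that did not overlap. The probe is annotated to the mouse gene, and whether it also reads the human transgene is not given in the sources used here. Dicer1 differed by -0.10, Drosha by 0.03 and Ago3 by 0.22. The GW182 scaffold genes Tnrc6a, Tnrc6b and Tnrc6c, which join Argonaute to deadenylases, gave 0.22, -0.10 and 0.36. The helicase Ddx6 gave -0.64, Btg4, the adaptor of the CCR4-NOT deadenylase, -0.10, and Cnot7, one of its catalytic subunits, 0.14. Lsm6, of the ring that binds shortened tails, was the list's highest member at 0.69.

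Among 47 measured maternal-effect and oocyte factors, 0 were called higher and 2 lower, with a median difference of -0.10 that became 0.05 with the deposited tables centred. By rank, 4 stood above and 16 below the first set. Over all genes 19.5% stood above and 21.2% below by rank, and 0.276% were called higher and 1.34% lower. Npm2, the oocyte's nucleoplasmin and a histone chaperone, had 6.52, 5.71 and 5.802 in the mimic set and 8.59, 7.85, 7.45 and 8.43 in the first set. Its difference of -2.07 was larger than the spread of either set, which was wide at SDs of 0.445 and 0.527. The second gene, Tle6 of the subcortical maternal complex, was singled out after its values were seen. It was among the brightest genes of both sets, at 10.75, 10.97 and 10.63 in the mimic set and 11.80, 11.89, 11.89 and 11.80 in the first set, a difference of -1.06 at mean ranks of 99.1 in the mimic set and 99.9 in the first set. Nlrp5, of the same complex, was highest of the list at 1.02, but the groups overlapped: the mimic set had 10.74, 10.35 and 10.53, and in the first set replicate 4 had 10.69 where the others had 9.61, 9.17 and 8.61. Its other probes gave 0.63 and -0.12. Padi6, Ooep and Khdc3, other genes of the complex, gave -0.35, -0.44 and -0.21.

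Of 9 measured zona pellucida and fertilization genes 0 were called, with a median difference of -0.18. The egg tetraspanin Cd9 was the lowest member at -0.92, with 6.29, 6.31 and 6.02 in the mimic set and 7.20, 7.53, 6.86 and 6.93 in the first set. The zona glycoprotein genes split: Zp1 gave -0.38 and Zp3 -0.51, while Zp2 gave 0.61 with overlapping groups, since first-set replicate 4 had 9.17 where the other 3 arrays had 7.81, 7.26 and 6.91. The growth factor genes Gdf9 and Bmp15 gave -0.74 and 0.26, and Bmp15 gave -0.01 with median scaling. Gdf9 overlapped between the sets, at 10.89, 10.23 and 10.43 in the mimic set and 11.35, 10.98, 10.85 and 11.83 in the first set.

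Meiotic arrest and maturation genes had a median difference of 0.04 over 28 of 30, with 0 called higher and 1 lower. Gpr3, the receptor whose constant signalling through Gs keeps cAMP high and the oocyte arrested, had 6.61, 6.67 and 6.36 in the mimic set and 8.11, 7.91, 8.19 and 8.28 in the first set. The difference was -1.57, a 2.98-fold lower mean, and the mean rank was 37.0 and 71.5. Other genes of the cAMP pathway gave smaller values: Gnas, the Gs alpha subunit, -0.45, Prkaca, a catalytic subunit of protein kinase A, -0.68, the adenylyl cyclase Adcy9 0.44 (-0.17 with the deposited tables centred), and Pde3a, the target of milrinone, 0.43. Cdk1 gave 0.11, Cdc25b 0.40, Wee2, the oocyte's own Wee1-like kinase, 0.44, and the kinase Mos -0.59. Over 21 dormant maternal messages and their regulators the median was 0.14, with Tex19.1 highest at 0.57 and Ccno lowest at -0.74. Over 38 spindle, cohesin and checkpoint genes it was 0.10, with Spc25 at 0.66 and Spc24 at -0.62, subunits of the same kinetochore complex, at opposite ends. A second probe gave 0.73 for Spc25 and -0.03 for Spc24. Neither list had a called gene.

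Stress, damage and RNA-sensing genes gave 0 calls. Over 21 of 38 stress and heat shock genes the median was 0.06, with the immediate-early gene Fosb highest at 0.71 (-0.10 with the deposited tables centred) and the heat shock factor Hsf2 lowest at -0.99 with overlapping groups. Over 13 of 37 genes of double-stranded RNA sensing and the interferon response it was -0.09: Stat2 was highest at 0.56, with overlapping groups and -0.05 with the deposited tables centred, Irf3 was lowest at -0.67, with 0.36 by a second probe, and Ifit3, an interferon-induced gene, gave 0.23. Over 17 of 25 genes of p53 and DNA damage it was 0.05. Trp53inp1, a p53 target, had 10.06, 10.05 and 10.23 in the mimic set and 9.39, 9.41, 9.43 and 9.17 in the first set, a difference of 0.76. Trp53bp1, which binds p53 and marks DNA breaks, was the list's lowest at -0.90. Of 17 two-cell stage genes 5 were measured, from Zfp345 at -0.86 to Eif1ad at 0.55.

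Mt1, a metallothionein that binds zinc, had 9.85, 9.80 and 9.81 in the mimic set and 10.14, 9.92, 9.85 and 9.996 in the first set, a difference of -0.16. The nearest arrays were close, and the difference was 0.12, the opposite sign, with the deposited tables centred. Over 11 of 21 genes of metallothioneins and zinc transport the median was -0.05, from Slc30a6 at -0.72 to Slc30a4 at 0.36.

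Large sets of housekeeping genes lay slightly below 0 in this normalization. The median was -0.14 over 53 cytosolic ribosomal protein genes, of which 18 were above 0, -0.10 over 73 mitochondrial ribosomal protein genes and -0.14 over 70 genes of the respiratory chain, of which 22 were above 0. All 3 medians were above 0, at 0.07, 0.02 and 0.06, when the deposited normalized tables were centred instead. The ribosomal lists had 0 calls, with Rps6 at 0.58 and Rps27 at -0.89, and Mrpl4 at 0.58 and Mrpl17 at -0.999, as their highest and lowest members. Uqcrc1, a core subunit of complex III, was the respiratory chain's 1 lower gene, at -1.18 (-0.47 without background correction), and Ndufb5 of complex I its highest at 0.46. Glycolysis and citrate cycle genes had a median of -0.11 over 31, from Ldha at -0.82 to Pdhx at 0.83 (-0.02 with the deposited tables centred), with 0 calls. Proteasome subunits had -0.03 over 35, from Psmd2 at -0.72 to Psma6 at 0.55, and initiation factors 0.04 over 33, from Eif3a at -0.67 (-0.98 and 0.04 by its other probes) to Eif2b5 at 0.71, both with 0 calls.

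Spliceosome and SR protein genes had a median of 0.07 over 30, with 1 called higher and 0 lower. Snrnp70, the 70K protein of the U1 particle, had 9.52, 9.67 and 9.59 in the mimic set and 8.50, 8.68, 8.44 and 8.53 in the first set, a difference of 1.05 that was 0.91 without background correction. Snrpd3, a core Sm protein, was the lowest member at -0.63. Rab GTPases, the switches of vesicle traffic, had -0.02 over 32, with Rab3d lower at -1.20 and Rab21 their highest at 0.84. Rab3d had 8.21, 8.14 and 8.02 in the mimic set and 9.40, 9.23, 9.54 and 9.10 in the first set, and was -0.75 with the deposited tables centred.

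**Figure D3:**
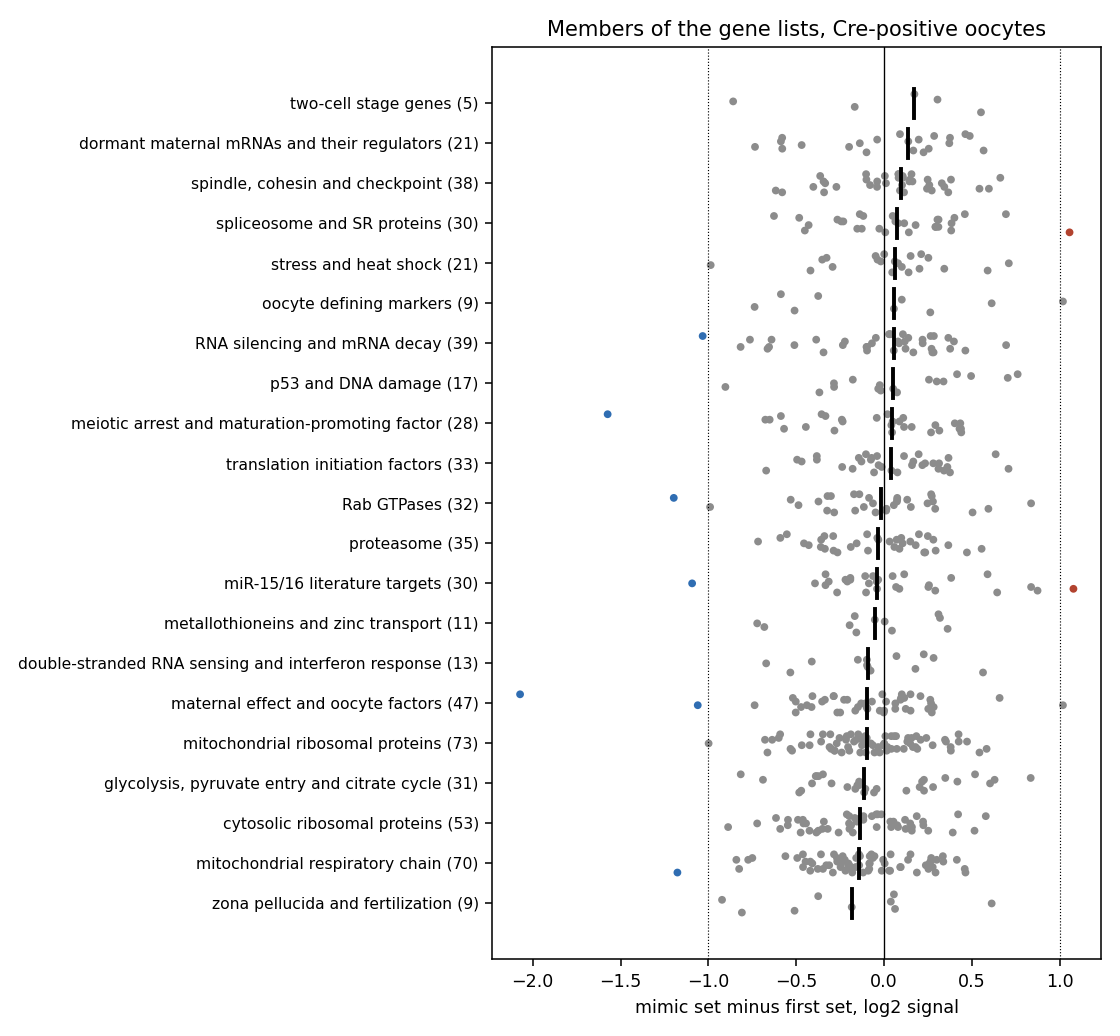
Difference of log2 signal, mimic set minus first set, for the measured members (numbers in brackets) of 21 gene lists with at least 5 members, Cre-positive oocytes. Points are genes, coloured where called higher or lower, thick bars are medians and dotted lines mark 2-fold; medians lie between -0.18 and 0.17, and in each list points lie on both sides of 0.

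The arrays often hold several probes for a gene, and they read the sets differently. Of the 117 called genes, 32 had at least 1 further probe detected on all 7 arrays, 44 probes in all. Of these 27 had the sign of the call, 14 of them with ranks that did not overlap in that direction, and 3 were themselves past 2-fold: those of Inppl1 at -1.36, Sh3rf2 at -1.13 and Ncl at -1.03. Arhgap10 was 0.83 by its other probe, Dip2b 0.49 and Sufu 0.07. The further probes of Shisa5 gave -0.52 and -0.43, and that of Lmnb1, the lamin B1 gene, gave 0.27 where its brightest gave -1.64. A Yipf3 probe gave 1.10 where the brightest gave -1.01. Inppl1, Sh3rf2, Ncl, Lmnb1 and Yipf3 were singled out after their values were seen. Over all 1908 genes with more than 1 such probe, the 2 brightest had the same sign in 1214 (63.6%), with Pearson's r of 0.345 across genes. Whether a difference belongs to the transcript or to the probe was not tested.

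**Figure D4:**
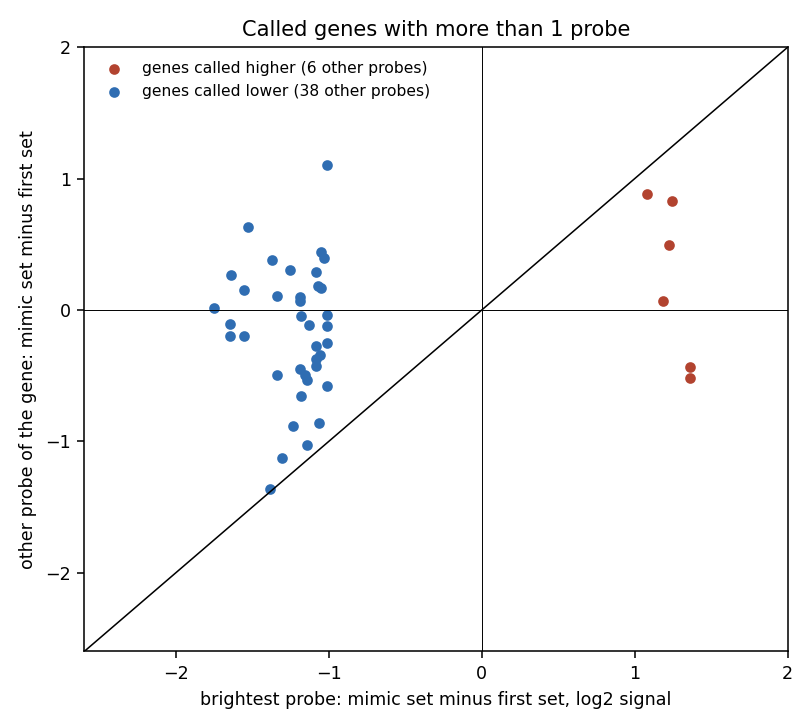
For 32 called genes with further probes detected on all 7 arrays, the difference of log2 signal (mimic set minus first set) by each further probe (vertical) against that by the brightest probe (horizontal). Points are the 44 further probes, 6 of genes called higher and 38 of genes called lower; the solid line is equality, and 27 points have the sign of the call.

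The Cre-negative oocytes of the same tables, which carry the transgene behind its stop cassette and share no array with the Cre-positive ones, give the set difference a second time. All 20 higher genes were also above 0 in Cre-negative oocytes, 15 of them by 2-fold or more, with medians of 1.16 in Cre-positive and 1.22 in Cre-negative oocytes. Of the 97 lower genes 93 could be read on the same probe on all 14 arrays; all 93 were below 0 in Cre-negative oocytes, 73 by 2-fold or more, and the medians were -1.19 and -1.23. In the fit of all 14 arrays Diaph1 differed between the sets by 1.70 in Cre-positive and 1.61 in Cre-negative oocytes. Taf15 gave -2.39 and -2.70, Npm2 -2.07 and -2.28, and Gpr3 -1.57 and -1.53. Across all 7142 genes measured on the 14 arrays Pearson's r of the 2 set differences was 0.913 and Spearman's rho 0.901, as a description. These set differences share their 2 tables, and with an r this high the agreement of the called genes is not particular to them. The share of all genes with the same sign in both was not counted.

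The difference of the 2 set differences, Cre-positive minus Cre-negative, is the 1 contrast from which a shift shared by a whole table drops out, and was tested with limma. It passed an adjusted p of 0.05 in 0 of 7142 genes (0%), in limma's moderated test with Benjamini-Hochberg adjustment, and the smallest adjusted p was 0.9998. Before adjustment, p was under 0.05 in 211 genes (2.95%), and the median standard error was 0.171. For Diaph1 the difference was 0.09 (95% interval -0.29 to 0.46), for Taf15 0.31 (-0.20 to 0.82), for Cadm1 -0.20 (-0.67 to 0.26), for Lamc1 -0.14 (-0.44 to 0.17) and for Ago2 -0.28 (-0.64 to 0.09). These intervals leave room for differences of the size they span, and a p that misses the threshold does not show that Cre status had none.

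The genes of smallest unadjusted p gave the following values, none past the adjusted threshold. Zfp345, a zinc finger gene of the two-cell list, differed between sets by -0.86 in Cre-positive and -0.15 in Cre-negative oocytes. Vamp3, a vesicle SNARE, gave -1.25 and -0.29, a difference of -0.96 (95% interval -1.51 to -0.42). Spam1, a hyaluronidase known from sperm, gave 0.53 and 1.20, Gng2, a G protein gamma subunit, 0.44 and -0.17, and the nucleotidase Cant1 -0.56 and -0.99. Stx6, a syntaxin, gave -0.04 and -0.59 on the probe that was brightest over 14 arrays.

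**Figure D5:**
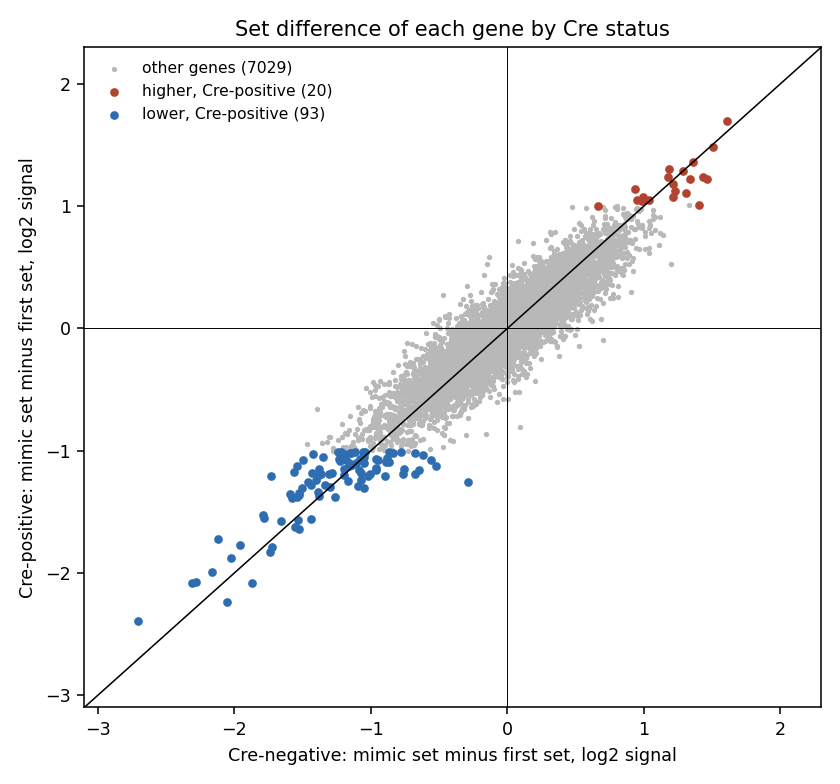
Difference of log2 signal, mimic set minus first set, in Cre-positive (vertical) against Cre-negative oocytes (horizontal) for 7142 genes detected on all 14 arrays. Points are genes, the solid line is equality, and the coloured genes are the 20 higher and 93 of the 97 lower genes called in Cre-positive oocytes; all coloured points have the same sign on both axes.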

How the data were processed

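The authors deposited raw tables that hold an intensity and a detection p-value per probe and array, per the file headers, and normalized tables in log2, which equalled a quantile normalization within each table of log2 raw signal to within 4.97e-14. Per the labels' protocols PicoPure RNA was amplified by a Nugen method and carried biotin; the sources used here give no scanner software or genome build. From the raw intensity, the 7 arrays were corrected with nec of limma 3.58.1 (R 4.3.3, offset 16, with controls inferred from detection p), log2 transformed and quantile normalized together. Probes with 1 symbol in the platform annotation (23978 of 25697; 1719 had several or none) were named, 23962 of them through RefSeq's GRCm38.p6 table. Each gene is its brightest probe detected on all 7 arrays. Offset and background make fold changes of dim genes smaller than those of the transcripts.

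The set difference has no test. The contrast of Cre status between sets was fitted with lmFit and eBayes on 14 arrays, two-sided, and checked on simulated data. Where nothing says that arrays came from separate animals, p-values cover no more than the spread between these arrays. The number of arrays limits the precision. Named genes are the 12 furthest higher and lower, the 10 of highest rank, the ends of each list, called miR-15/16 targets, Ago2, Mt1 and the 3 of smallest p each way; other genes are examples from the lists. The members and all 24 lists were chosen with earlier results of these data known. Alternatives covered background, offset, scaling, detection, probe choice, fold limit and left-out arrays. Figures were drawn with matplotlib 3.10.9.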

Additional observations from a re-analysis of the deposited data

Results flagged for a closer look

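In the first set, which has 4 arrays, the array furthest from the others was checked with Dixon's ratio for 90 values, and 7 (7.78%) passed; chance passes about 1 in 20. Replicate 1 had 11652 probes detected, where the others had 13294 to 13459. Replicate 4 was the outlying array in 5 of the 7. It gave a log2 signal of 9.23 for Ppp3r1 where the others gave 8.42 to 8.54, 12.24 for Ctcfl against 12.64 in the others, 12.64 for Dnmt1 against 12.51, 9.17 for Trp53inp1 against 9.39 to 9.43, and 8.39 for Tarbp2 against 8.66 to 8.67. For Ctcfl and Dnmt1 quantile normalization ties the other 3 arrays at 1 value, so that any change of rank alone passes the ratio. These 2 therefore cannot be set against the chance rate. Replicate 3 gave 7.88 for Diaph1 where the others gave 7.44 to 7.48. Of these genes, Diaph1, Ppp3r1 and Tarbp2 are called higher or lower. There the outlying array lay on the same side of the mimic set as the other 3, which the rule for calling required.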

How the results depend on the processing

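The counts of genes called depended on the processing, and their direction did not: under each of the alternatives tried more genes were lower than higher. Against 20 higher and 97 lower, there were 4 and 14 without background correction, 93 and 237 with an offset of 1, 7 and 36 with an offset of 50, 18 and 309 with median scaling in place of quantiles (94.5% of calls lower, against 82.9%, with the median of all genes at -0.12), 14 and 21 from the deposited normalized tables after centring (60.0% lower), 43 and 144 by a rank shift of 20 points, 50 and 123 with every probe counted, and 364 and 523 at 1.5-fold (59.0% lower). Normalizing all 14 arrays together gave 21 and 98, detection p under 0.01 gave 19 and 84, and no detection filter gave 27 and 109. Leaving out 1 array at a time gave 19 to 42 higher, the most without first-set replicate 1, and 90 to 118 lower; of the 20 and 97 genes, 17 to 20 and 80 to 96 were called again. Without first-set replicates 1 and 4 together there were 53 and 148. The median of miR-15/16 targets, -0.04, was 0.0579 from the centred deposited tables and -0.0869 to 5.44e-05 without 1 array at a time. In all, the settings moved 70 list medians, 231 gene values and 15 counts by more than 1 SD (counts: 1.5 times) and left 314, 1121 and 46 within it. The limma contrast of Cre status between sets called 0 genes under each of its alternatives, with a smallest adjusted p between 0.0923 and 1 (its offsets of 1 and 50, and leaving out first-set replicates 1 and 4, were added after seeing the data); the replicate block also called 0, with 235 unadjusted. Replicate numbers showed no general pairing: of 19 same-numbered pairs 2 correlated over 0.1 and 4 matched their own number best. Many of these pairs join arrays of different tables. Between Cre-negative and Cre-positive arrays with mimic, r was 0.03, 0.08 and 0.24 for numbers 1, 2 and 3. Numbers 1 and 3 matched best there, so a pairing inside that table is not settled. The cause of these dependences was not tested. Calls near the floor of the mimic set are limited by signal over background.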

Other observations

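Some probes were detected in 1 set only. Of 25697 probes, 150 were detected on all 3 mimic arrays and no first-set array, and 37 on all 4 first-set arrays and no mimic array. Whatever the other set, 12205 were detected on all 3 mimic arrays and 10867 on all 4 first-set arrays. The 150 and the 37 are not like counts, since they ask for 3 and for 4 arrays. First-set replicate 1 also had the fewest probes detected, at 11652. Their median percentiles were 52.6 and 56.0 and their highest 59.1 and 63.4. These percentiles are over all probes and not on the scale of the ranks above. Between 11652 and 13482 of 25697 probes were detected per array, so these medians lie close to the detection limit. The highest of the 150 that name a gene were probes of Golt1b, Ttc3, Dmkn, Ccm2 and Cemip2. The highest of the 37 that name a gene were probes of 5730409E04Rik, Acsf3, Hsd3b2, Myocd and Mafa, of which Hsd3b2 and Myocd were lower in the mimic set by their brightest probes too.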
